A study of Mus musculus with 12 samples.

Results

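A set of 7 genes that start or sustain the entry of germ cells into meiosis were followed in purified mouse primordial germ cells. They were chosen by their known roles, but they and the gene lists below were chosen with earlier results of these data known. All 7 of 7 were found among the 37991 genes of the count table through their Ensembl identifiers. The cells came from embryos at embryonic day E13.5 on a C57BL/6 background, and each library holds the sorted cells of 1 embryo, so p-values measure the spread between embryos. The 12 libraries fall into 4 groups, namely 3 female control (Ctrl), 2 female Ezh2 conditional knockout (CKO), 4 male Ctrl and 3 male CKO embryos. The labels name the groups Ctrl and CKO, and the columns of the table call them WT and KO. The sources used here do not give the Cre driver, the alleles carried by the controls, the deleted exons or the litters.

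The decision to enter meiosis is made in the fetal ovary. Retinoic acid and bone morphogenetic protein (BMP) signals reach the germ cells there. STRA8 and its partner MEIOSIN, the product of Gm4969, switch on many genes of meiotic prophase. MEIOC and the RNA helicase YTHDC2 act together on transcripts so that the mitotic programme is left behind. ZGLP1 is a transcriptional regulator that acts downstream of BMP in the oogenic programme, SOHLH2 is a basic helix-loop-helix factor of early germ cells in both sexes, and M1AP is a germ cell protein of the first meiotic division. Germ cells of the fetal testis do not enter meiosis at this age. EZH2 is the catalytic subunit of Polycomb repressive complex 2, which places the repressive mark H3K27me3.

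The promoters of Stra8, Meiosin and Meioc are printed because Stra8 and Meioc were the regulators called higher in CKO embryos and Meiosin encodes the partner of STRA8. Each window runs from 250 bases before to 50 bases after the annotated start, 5′ to 3′ on the strand of the gene, from RefSeq on GRCm38.p6. Capitals mark matches, on either strand, to AGGTCA (a half-site of retinoic acid receptors), CACGTG (the E-box), GCGGGA (the core of E2F sites) and CNCCTCAG (the STRA8 motif).
Stra8, chr6:34920698-34920997, plus strand: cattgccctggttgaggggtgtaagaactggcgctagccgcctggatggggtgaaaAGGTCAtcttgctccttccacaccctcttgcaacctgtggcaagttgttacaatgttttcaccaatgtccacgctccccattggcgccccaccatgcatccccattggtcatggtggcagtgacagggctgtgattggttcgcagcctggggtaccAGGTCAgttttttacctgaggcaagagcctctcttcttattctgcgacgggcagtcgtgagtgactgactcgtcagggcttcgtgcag
Meiosin (Gm4969, Bhmg1 in RefSeq), chr7:19118295-19118594, minus strand: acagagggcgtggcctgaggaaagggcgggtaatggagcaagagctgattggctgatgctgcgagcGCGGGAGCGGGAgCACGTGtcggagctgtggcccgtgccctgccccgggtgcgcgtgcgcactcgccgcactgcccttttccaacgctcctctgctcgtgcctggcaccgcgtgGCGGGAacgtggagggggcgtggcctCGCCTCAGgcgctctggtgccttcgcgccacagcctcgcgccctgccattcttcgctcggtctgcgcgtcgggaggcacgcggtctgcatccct
Meioc, chr11:102665335-102665634, plus strand: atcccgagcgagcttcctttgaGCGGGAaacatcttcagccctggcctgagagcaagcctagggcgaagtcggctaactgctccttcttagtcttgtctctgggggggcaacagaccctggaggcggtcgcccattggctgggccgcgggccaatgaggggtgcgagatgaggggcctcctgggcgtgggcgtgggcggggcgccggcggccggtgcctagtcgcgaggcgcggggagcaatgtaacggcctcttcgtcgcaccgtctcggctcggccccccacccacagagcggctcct

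The Stra8 window held AGGTCA at bases 57 to 62 and 213 to 218 of the printed run. Among 32851 mouse promoters of the same length, 16.3% held at least 1 match to AGGTCA and 1.81% held 2 or more. The Meiosin window held no AGGTCA but had 3 copies of GCGGGA, 1 CACGTG and 1 CNCCTCAG, and none of these matches overlapped another. GCGGGA occurred at least once in 20% of all promoters and 2 or more times in 4.96%, CACGTG in 7.15% and CNCCTCAG in 7.94%. The Meioc window had 1 GCGGGA and no match to the other motifs. The Meiosin and Meioc windows were rich in CpG, with 35 and 28 CpG against 10 in that of Stra8 and a median of 7 over all promoters. Of the 6 regulators with a window, Zglp1 had a CACGTG that overlapped an AGGTCA on the minus strand, Sohlh2 had a CNCCTCAG, and M1ap had a CNCCTCAG on the minus strand and a GCGGGA. A match is a string of letters and not evidence of binding.

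Total counts ran from 26180685 to 35299206, and 1 CPM (the usual depth-scaled read count, on TMM-scaled library sizes) was worth between 24.2 and 34.2 counts. The 10 germ cell markers summed to between 6130 and 6170 CPM in female CKO, 6570 and 7140 CPM in female Ctrl, and 7070 and 7880 CPM in males, with none at 0. In female CKO Ddx4 (1390 and 1190 CPM) and Dazl (3220 and 3130 CPM) lay within or above the female Ctrl range. Dppa3, Pou5f1, Kit, Dppa5a and Dnd1 lay below all female Ctrl libraries, and the other markers overlapped. Counts of Ezh2 over its whole length, which need not all lie in the deleted part, were lower in all 5 CKO libraries (82.4 to 107 CPM) than in any control (96.6 to 166 CPM) of the same sex, with a log2 fold change of -0.68 in females (adjusted p = 0.02 in edgeR) and -0.53 in males (adjusted p = 0.0527 in edgeR, not called). Summed Sertoli cell markers were between 15.9 and 43.2 CPM in male Ctrl and 14.6 and 34.1 CPM in male CKO, and between 10.6 and 13.9 CPM in females, where Amh was at 0. Among 5 endothelial markers, Pecam1, which germ cells also express, was at 129 and 158 CPM in female CKO and 238 to 299 CPM in female Ctrl. Cdh5, Kdr and Tie1 were all under 1 CPM in females and higher in both CKO females than in any female Ctrl (0.205 and 0.782 CPM of Cdh5 against at most 0.154 CPM). Emcn was at most 0.0938 CPM in females. In males Cdh5 was at 0.894 to 2.12 CPM in CKO and 0.416 to 0.596 CPM in Ctrl, while Kdr and Tie1 overlapped. In females 6 mesonephric stroma markers summed to between 9.72 and 29.3 CPM in CKO and 2.47 and 7.95 CPM in Ctrl. Summed red blood cell markers were at 15.7 CPM in female CKO 1 and 17.1 CPM in male CKO 1 and at most 2 CPM in the other 10 libraries. The part of these markers in the results was not tested.

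All 7 regulators were higher in female than in male control germ cells, and the size of the difference ranged from 120-fold in Stra8 to 1.42-fold in Sohlh2. The female Ctrl libraries lay above all male Ctrl libraries for each of the 7. Over all 16708 genes tested, 39.5% were called (edgeR quasi-likelihood test, Benjamini-Hochberg adjusted p under 0.05), 20.1% were called higher in females, and 22.3% had female libraries that all lay above the male ones, with 21.1% all below. In bulk RNA a larger share of expressing cells and more RNA per cell cannot be told apart.

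Stra8 (ENSMUSG00000029848, chromosome 6), which starts the meiotic programme, stood at 296, 276 and 212 CPM in the 3 female Ctrl embryos and at 1.81, 1.07, 2.22 and 3.56 CPM in the 4 male Ctrl embryos. The male level was low but measurable, with between 26 and 94 counts per library. The log2 fold change was 6.91 (SE 0.39, adjusted p = 2.01e-07 in edgeR), and only 14 of the tested genes had a larger female excess in controls.

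Meioc (ENSMUSG00000051455, chromosome 11) had the next largest sex difference of the 7, with 227, 254 and 188 CPM in female Ctrl and 14.7, 6.73, 15.4 and 19 CPM in male Ctrl. Its log2 fold change was 3.99 (SE 0.33, adjusted p = 3.8e-06 in edgeR). Ythdc2 (ENSMUSG00000034653, chromosome 18), which encodes its partner, differed far less, with 74.1 to 79.5 CPM in female Ctrl and 40.5 to 47.3 CPM in male Ctrl (log2 fold change 0.79, SE 0.11, adjusted p = 9.29e-05 in edgeR).

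Meiosin (ENSMUSG00000085601, chromosome 7) was at 23.5, 32.3 and 16.8 CPM in female Ctrl and 4.64, 3.92, 3.57 and 4.13 CPM in male Ctrl, a log2 fold change of 2.57 (SE 0.33, adjusted p = 5.17e-05 in edgeR). M1ap (ENSMUSG00000030041, chromosome 6) was at 140 to 181 CPM in female Ctrl and 17.3 to 34.3 CPM in male Ctrl (log2 fold change 2.78, SE 0.24, adjusted p = 2.24e-06 in edgeR). Zglp1 (ENSMUSG00000079681, chromosome 9) was at 49.6, 55.9 and 84.9 CPM in female Ctrl and 13.8 to 16.7 CPM in male Ctrl (log2 fold change 2.01, SE 0.16, adjusted p = 1.56e-06 in edgeR). Sohlh2 (ENSMUSG00000027794, chromosome 3) was abundant in both sexes, with 334 to 375 CPM in female Ctrl and 217 to 284 CPM in male Ctrl, and its log2 fold change of 0.50 (SE 0.10, adjusted p = 0.00171 in edgeR) was the smallest of the 7.

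**Figure D1:**
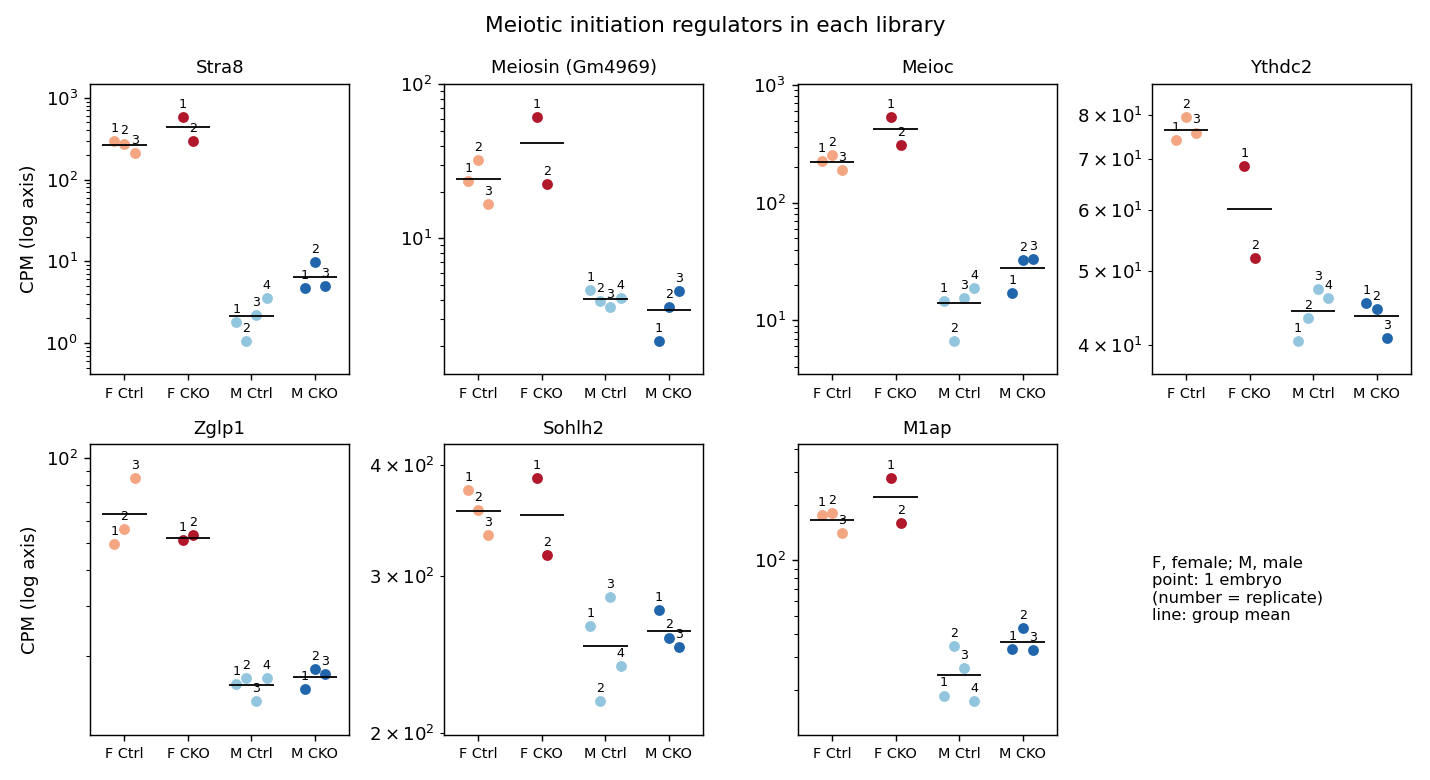
CPM of each regulator (log axis, scaled per panel) in every embryo of the 4 groups, with the replicate number above each point and the group mean as a line. Female points lie above male points in every panel. Female CKO 1 lies above all other embryos for Stra8 (580 CPM), Meiosin (61.3 CPM), Meioc (534 CPM), M1ap (279 CPM) and, narrowly, Sohlh2 (387 CPM).

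Per kilobase of exon, which allows levels to be compared between genes, the order in female Ctrl was Sohlh2 (150 CPM per kb), Stra8 (145), M1ap (74.9), Zglp1 (58.3), Meioc (48.2), Ythdc2 (8.61) and Meiosin (5.16). The embryo ranges of Sohlh2 and Stra8 overlapped, as did those of M1ap and Zglp1 and those of Zglp1 and Meioc. Those of Stra8 and M1ap, of Meioc and Ythdc2, and of Ythdc2 and Meiosin did not. In male Ctrl Sohlh2 led (106 CPM per kb), Zglp1 (14.5) and M1ap (10.9) followed with overlapping ranges, and Ythdc2 (4.99), Meioc (3.03), Stra8 (1.2) and Meiosin (0.866) were lowest, of which Meioc and Stra8, and Stra8 and Meiosin, overlapped. Exon lengths are from GENCODE M21 on GRCm38, a later annotation than the one behind the counts. In it most of the Zglp1 exon length is shared with an overlapping gene that is not in the count table.

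**Figure D2:**
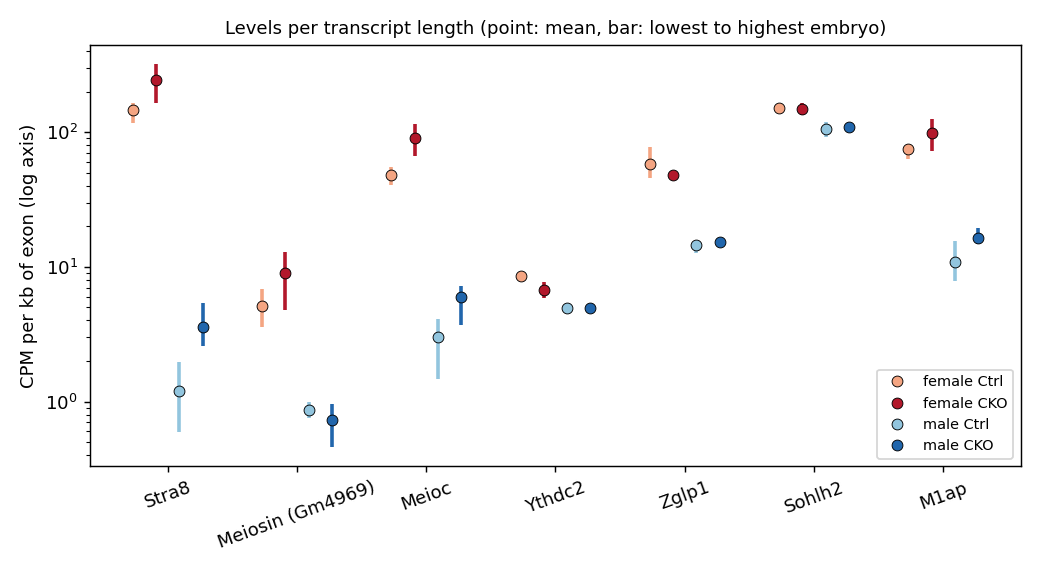
Level of each regulator per kilobase of exon (log axis) in the 4 groups, as the group mean (point) with the lowest and highest embryo (bar). Sohlh2 is at 91.7 CPM per kb or more in every embryo, while Stra8 ranges from 0.595 CPM per kb in a male Ctrl embryo to 322 CPM per kb in female CKO 1.

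Among CKO embryos all 7 regulators were again higher in females, against 19.4% of all genes tested called higher and 38.4% called in either direction. The log2 fold changes were 6.09 in Stra8 (SE 0.42), 3.92 in Meioc (SE 0.39), 3.61 in Meiosin (SE 0.40), 2.60 in M1ap (SE 0.28), 1.64 in Zglp1 (SE 0.19), 0.47 in Ythdc2 (SE 0.13) and 0.44 in Sohlh2 (SE 0.12). The edgeR adjusted p lay between 2.17e-06 in Stra8 and 0.0126 in Sohlh2. In no regulator did the libraries of the sexes overlap, and 33.4% of all genes had CKO female libraries that all lay above those of CKO males, with 30.8% all below. Without female CKO 1 the count fell to 5, with Ythdc2 (log2 fold change 0.25, adjusted p = 0.229 in edgeR) and Sohlh2 (0.28, adjusted p = 0.181 in edgeR) not called.

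In CKO embryos Stra8 and Meioc were higher than in controls when the effects of both sexes were averaged, and in neither sex alone was any of the 7 called in edgeR. The averaged log2 fold change was 1.16 in Stra8 (SE 0.26, adjusted p = 0.0122 in edgeR) and 0.95 in Meioc (SE 0.24, adjusted p = 0.0218 in edgeR), which are 2.24-fold and 1.94-fold. These 2 of 7 compare with 14.7% of all genes called in this comparison, 6.85% higher and 7.87% lower. Both calls rested on female CKO 1. Without it the averaged values were 0.89 in Stra8 (adjusted p = 0.0604 in edgeR) and 0.73 in Meioc (0.116). Female CKO 1 is also the female library with the most red blood cell marker RNA. The Meioc call was also lost without female Ctrl 3 (0.0554) or male CKO 3 (0.0553), and both calls were lost with no filter on low counts (0.0553 in Stra8 and 0.0863 in Meioc). The averaged values of the other regulators were 0.50 in M1ap (adjusted p = 0.0809 in edgeR), 0.27 in Meiosin (0.51), -0.18 in Ythdc2 (0.174), -0.09 in Zglp1 (0.674) and 0.02 in Sohlh2 (0.896).

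In the females Stra8 was at 580 and 300 CPM in the 2 CKO embryos against 212 to 296 CPM in the 3 controls. CKO 1 was far above the controls and CKO 2 was just above the highest of them. The log2 fold change of 0.75 (SE 0.35, 95% interval -0.02 to 1.52) missed the threshold (adjusted p = 0.227 in edgeR). Meioc was at 534 and 308 CPM against 188 to 254 CPM, again with both CKO embryos above the controls, and its log2 fold change was 0.92 (SE 0.36, adjusted p = 0.148 in edgeR).

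Meiosin was at 61.3 and 22.6 CPM in CKO females against 16.8 to 32.3 CPM, so that CKO 2 lay within the controls (log2 fold change 0.79, SE 0.37, adjusted p = 0.218 in edgeR). M1ap was at 279 and 159 CPM against 140 to 181 CPM, with the same split between the embryos (0.40, SE 0.27, adjusted p = 0.4 in edgeR). Ythdc2 was the regulator whose CKO embryos, at 68.6 and 51.9 CPM, both lay below the controls (-0.34, SE 0.13, adjusted p = 0.132 in edgeR). Zglp1 was at 51.2 and 53.2 CPM, within the controls (-0.28, SE 0.20, adjusted p = 0.416 in edgeR), and Sohlh2 at 387 and 317 CPM, on either side of them (-0.01, SE 0.12, adjusted p = 0.968 in edgeR). Sohlh2 had a 95% interval of -0.28 to 0.25, the narrowest of the 7 in females.

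Over all genes 7.17% were called in CKO females, 3.01% higher and 4.16% lower. CKO libraries all lay above the controls in 22.2% of genes and all below in 22.3%, so the 2 regulators above (Stra8 and Meioc) and the 1 below (Ythdc2) are shares that a comparison of 2 against 3 embryos gives for many genes.

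In the males Stra8 was at 4.67, 9.74 and 5.02 CPM in the 3 CKO embryos and at 1.07 to 3.56 CPM in the 4 controls, and the groups did not overlap. The log2 fold change of 1.58 (SE 0.38, 95% interval 0.76 to 2.40) missed the threshold (adjusted p = 0.0586 in edgeR). It passed in DESeq2 (adjusted p = 0.0121) and with libraries scaled by size only (adjusted p = 0.0491 in edgeR). Even the highest CKO male, at 9.74 CPM, was far below the lowest control female at 212 CPM. CKO male libraries all lay above the controls in 8.01% of genes and all below in 6.97%, and 1.7% of genes were called, 1.2% higher and 0.497% lower.

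Meioc was at 17.1, 32.7 and 33.5 CPM in CKO males and 6.73 to 19 CPM in the controls, and CKO 1 lay within the controls (log2 fold change 0.99, SE 0.32, adjusted p = 0.143 in edgeR). M1ap was at 33, 42.9 and 32.8 CPM against 17.3 to 34.3 CPM, where only male Ctrl 2 reached the CKO level (0.59, SE 0.23, adjusted p = 0.223 in edgeR). Meiosin was at 2.17, 3.61 and 4.54 CPM against 3.57 to 4.64 CPM, with a log2 fold change of -0.24 (SE 0.34, adjusted p = 0.778 in edgeR) and a 95% interval of -0.98 to 0.49. Ythdc2 (-0.02), Zglp1 (0.09) and Sohlh2 (0.05) had log2 fold changes near 0 and overlapping groups, with 95% intervals that lay between -0.27 and 0.45.

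**Figure D3:**
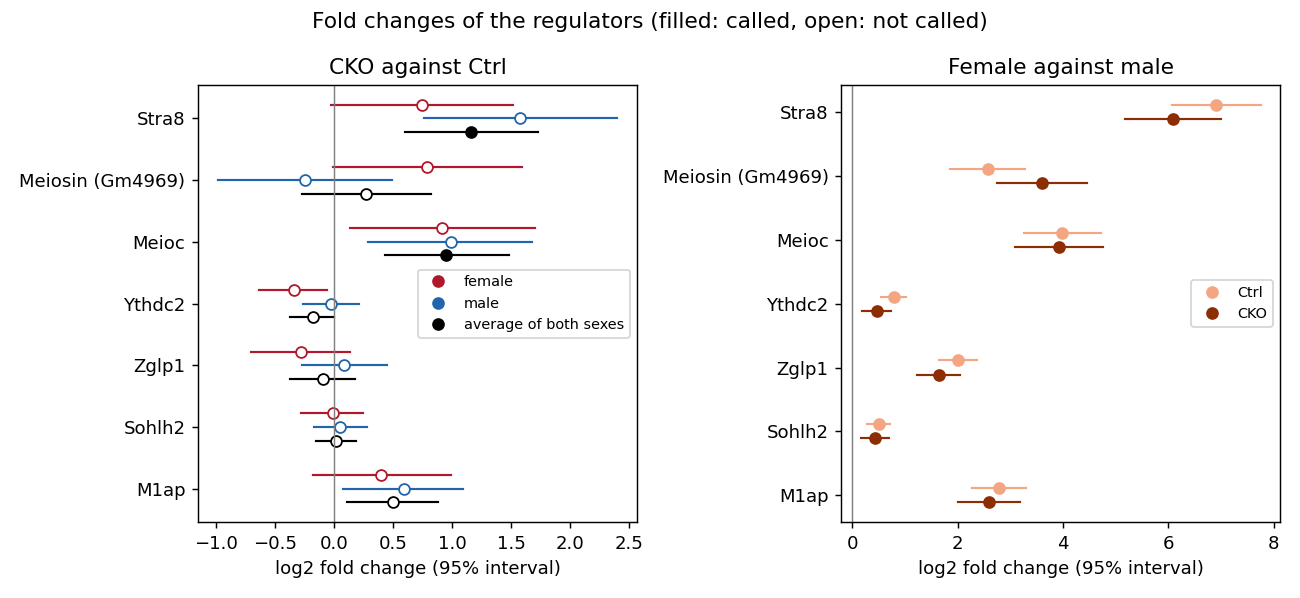
Log2 fold changes of the 7 regulators with unadjusted 95% intervals, for CKO against Ctrl in each sex and averaged (left) and for females against males in each genotype (right); filled points were called in edgeR over all genes. On the left the filled points are the averages of Stra8 (1.16) and Meioc (0.95), and on the right every point is filled.

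The CKO effect was not shown to differ between the sexes in any regulator. The female minus male difference of log2 fold changes was -0.83 in Stra8 (SE 0.52, adjusted p = 0.687 in edgeR), 1.04 in Meiosin (SE 0.51, adjusted p = 0.615 in edgeR) and -0.07 in Meioc (SE 0.48, adjusted p = 0.984 in edgeR). The 95% intervals were wide, from -1.97 to 0.31 in Stra8 and from -0.05 to 2.12 in Meiosin. The other 4 regulators had differences from -0.37 in Zglp1 to -0.07 in Sohlh2. In edgeR 0 of 16708 genes were called (0%) and 1401 had an unadjusted p under 0.05, limma called 0 and DESeq2 called 50. With no filter on low counts edgeR called 2 genes and without female CKO 1 it called 3. Of the 7 regulators 0 were called in any of these runs.

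Genes of meiotic prophase were higher in control females than in control males in 30 of 38 cases and lower in 0. The shares over all genes were 20.1% higher and 19.4% lower. Rec8, a meiotic cohesin, was at 127 ± 19.5 CPM (SD, n = 3) in female and 8.49 ± 6.12 CPM (n = 4) in male Ctrl, and Meiob, a single-strand DNA binding protein, at 11.6 ± 2.44 and 0.991 ± 0.458 CPM. Smc1b (log2 fold change 1.32) and Dmc1 (1.64), of the cohesin ring and of strand exchange, also had small adjusted p. When the CKO effects of both sexes were averaged, 13 of 38 were called higher and 0 lower (6.85% and 7.87% over all genes), with a median log2 fold change of 0.46 against -0.01 over all genes. Those with the smallest p were Mael (0.73), a piRNA pathway gene, and the synaptonemal complex genes Sycp3 (0.71), Sycp2 (1.00) and Syce3 (0.89). Without female CKO 1, 0 were called higher and 1 lower, and the median was 0.28. In females alone 4 were called higher (3.01% over all genes), which became 0 without female CKO 1 or female Ctrl 3, 1 without female Ctrl 1, 7 without female CKO 2 and 8 without male Ctrl 2, and in males alone 0, where 28 of 38 had a positive value that did not pass.

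Genes of the signals upstream of the regulators differed between the sexes in controls, in both directions. Of 18 tested genes of retinoic acid supply and reception, 9 were higher in females and 3 lower, where 20.1% of all genes were higher and 19.4% lower, and Rarb, a receptor gene that is itself a classic target of retinoic acid, was at 5.39 ± 1.85 CPM (n = 3) against 0.222 ± 0.151 CPM (n = 4). The retinoic acid binding protein gene Crabp2 (log2 fold change 2.47) and the retinol dehydrogenase gene Rdh10 (1.09) were also higher. So were the genes of the breakdown enzymes, Cyp26a1 (3.00, SE 1.10, adjusted p = 0.045 in edgeR) and Cyp26b1 (1.31, SE 0.49, adjusted p = 0.0488 in edgeR). Both lay just under the threshold. The 3 lower genes were the synthesis enzyme genes Aldh1a1 (-3.12) and Aldh1a2 (-1.68) and the receptor gene Rxrb (-0.58). Of 17 genes of the BMP input, 12 were higher and 2 lower beside the same shares of all genes. The BMP target genes Id1 (log2 fold change 4.63), Id2 (3.30), Msx1 (4.88) and Gata2 (4.68) had the smallest adjusted p. The 2 lower genes were Smad1 (-1.16) and the receptor gene Acvr2b (-0.46). The lower genes of both lists and the Cyp26 genes were named after their values were seen. The signals themselves were not measured. In CKO embryos, averaged over the sexes, 1 of the 18 retinoic acid genes was called higher and 2 lower. In the BMP list of 17, 2 were called higher and 1 lower. These counts were near the shares over all genes, 6.85% higher and 7.87% lower. The retinol carrier gene Rbp4 rose (1.44) while Cyp26b1 (-1.48) and Rxrb (-0.36) fell. Cyp26b1, whose product breaks down retinoic acid, was at most 1.3 CPM in any library. The BMP signal transducer gene Smad1 (0.65) and the target Id3 (0.41) rose and Smad4 (-0.45) fell. The Rbp4, Smad1 and Smad4 calls held in each of the 19 alternative runs, Cyp26b1 in 8 of 18, Id3 in 7 of 19 and Rxrb in 6 of 19, and each of the latter 3 was lost without either female CKO embryo.

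A further 19 genes were listed as repressors of meiotic genes, a broad list in which not every member is established in that role. Of these, 0 were higher and 6 lower in control females than in control males, where 20.1% of all genes were higher and 19.4% lower. Nanos2, which blocks meiosis in male germ cells, was at most 0.0343 CPM in female Ctrl and at 23.8, 0.33, 2.65 and 16.7 CPM in male Ctrl, and Tgif1 (-2.33), L3mbtl2 (-0.62) and E2f6 (-0.48) were lower as well. Averaged over the sexes, 5 of the 19 were lower in CKO embryos and 0 higher, beside 7.87% lower and 6.85% higher over all genes. They were Dnd1 (-0.51), which encodes a germ cell RNA-binding protein and was named after its value was seen, Dnmt1 (-0.70), the maintenance DNA methyltransferase, the PRC1 subunit genes Ring1 (-0.70) and L3mbtl2 (-0.45), and the demethylase gene Kdm5c (-0.66), whose call was lost without female CKO 2. Dnmt1 was at 451 ± 35.3 CPM (n = 3) in female Ctrl and 250 ± 19.3 CPM (n = 2) in female CKO, and at 458 ± 36.9 (n = 4) and 311 ± 84.7 CPM (n = 3) in males. Without female CKO 1 the count was again 5 lower and 0 higher, so it did not rest on the embryo on which the calls of Stra8 and Meioc rested. The median of the list was -0.06, and 0.02 with libraries scaled by size only.

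A list of 11 genes was set around MEIOC and YTHDC2, and not all of its members encode partners of these proteins. In control females 1 was higher and 1 lower, where 39.5% of all genes were called. They were Rbm46 (0.73), which encodes a partner RNA-binding protein, and Ythdf1 (-0.31), an m6A reader gene. The latter was not called with libraries scaled by size only. The exonuclease gene Xrn1 was the 1 member called in the averaged CKO comparison (-0.41), where 14.7% of all genes were called, a call lost without female CKO 2. Of 9 tested genes listed as oocyte transcription factors, 7 were higher in control females and 0 lower (20.1% and 19.4% over all genes). Among the 7 were Figla (3.35), Tbpl1 (0.32), Rhox9 (1.93) and Sohlh1 (3.07). The members of this list are not all particular to oocytes. Foxl2, also among the 7, is a marker of somatic pregranulosa cells and was at most 1.11 CPM in any library. The Sohlh1 call was lost without female Ctrl 1, female Ctrl 2 or male Ctrl 3, and the Rhox9 call with the replicate number as a block (adjusted p = 0.0629 in edgeR). Tbpl1 (0.30) was the 1 called in the averaged CKO comparison.

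**Figure D4:**
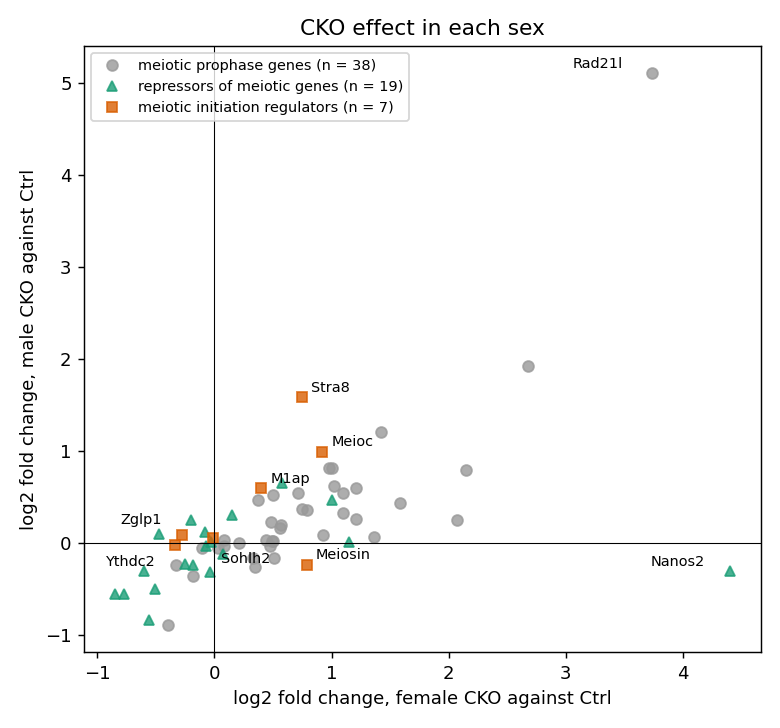
Log2 fold change of CKO against Ctrl in females (x) and in males (y) for the 7 regulators, 38 meiotic prophase genes and 19 genes listed as repressors of meiotic genes. Stra8, Meioc and M1ap lie in the quadrant of positive values in both sexes and Meiosin is positive in females (0.79) and negative in males (-0.24); Rad21l and Nanos2 lie far out and were near 0 CPM in 1 or more groups.

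The genes whose profile over the 12 libraries was nearest to that of each regulator were found by the root mean square difference of centred log2 CPM among 11032 other genes. For Stra8 they were Dlx3 (0.71), 1700013H16Rik (0.85), Sct (0.89), Pwwp2b (0.99) and Zfp36l3 (1.00), against a median of 3.36 over all genes. 1700013H16Rik was at 67.9 ± 12.7 CPM in female Ctrl (n = 3), 172 ± 66.1 in female CKO (n = 2), 1.81 ± 0.26 in male Ctrl (n = 4) and 4.14 ± 1.61 in male CKO (n = 3). For Meioc the nearest were Baiap2l1 (0.35), Osbp2 (0.42) and Olfm2 (0.44), and for Meiosin Tsc22d3 (0.33), Syngr4 (0.37) and Pnck (0.38). For M1ap they were Thnsl2 (0.26), Nexmif (0.27) and Arsb (0.29), for Zglp1 Pip5k1b (0.18), Pdpn (0.24) and Nmb (0.24), for Ythdc2 Trmt2b (0.09), Mob1a (0.10) and Gmcl1 (0.11), and for Sohlh2 Nfxl1 (0.08), Mapk9 (0.09) and Fig4 (0.09). The median over all genes was 0.48 for Ythdc2 and 0.42 for Sohlh2, which varied least. Among the 7, Ythdc2 and Sohlh2 were nearest to each other (0.18), followed by Meiosin and M1ap (0.55), and Stra8 and Sohlh2 were farthest apart (3.10). The partners Meioc and Ythdc2 were 1.78 apart.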

How the data were processed

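RNA of sorted germ cells from 12 embryos was sequenced in 1 library each. The deposited values are whole-number read counts per Ensembl gene, which the authors made with TopHat2 2.0.11 and featureCounts among the tools listed, beside Trimmomatic 0.33 and CASAVA 1.8.4, per the submitters' processing notes. These list NCBIM37 and mm9 as builds and give no settings. Strand use and the treatment of multiply mapped reads are not given in the sources used here. The members and gene lists were chosen with earlier results of these data known.

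Gene symbols came from a later annotation through the identifiers: 32919 of 37991 identifiers matched and held 99.5% of counts. None of the 7 regulators shares an exon with another gene of the table. Zglp1 shares 1003 of its 1088 bp of exon with Gm49373, a protein-coding gene on the same strand that is not in the table. Reads of the 2 genes cannot be told apart there. Counts were tested in edgeR 4.0.16 (R 4.3.3) with TMM factors, a filter on low counts (filterByExpr, minimum count 10, total 15), a robust quasi-likelihood fit of 4 group means to all 12 libraries and Benjamini-Hochberg adjustment over the 16708 genes left; all 7 regulators passed the filter. Genes were called at an adjusted p under 0.05. The 95% intervals are not adjusted. The 6 contrasts were repeated with 8 other settings, including limma 3.58.1 (voom with quality weights) and DESeq2 1.42.0, and without each of the 12 libraries. The procedure was tested on simulated data, whose outcome is not given here. Replicates of a group differed by 18.6 to 74.2 chi-square units per gene, far more than sampling noise. The rule for named genes took all 7 regulators, up to 4 called genes per list and contrast with the smallest adjusted p, and the nearest profiles. The list genes it took are printed for the average of the sexes and for the control sexes, 1 gene is not reported here, and those of the other contrasts are given as counts where they are given. Precision is set by the 2 to 4 embryos per group. Sequences for 6 of the 7 regulators came from RefSeq promoters on GRCm38.p6, another build than that of the counts.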

Additional observations from a re-analysis of the deposited data

How the results depend on the processing

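The count of the 7 regulators called was 0 in CKO females, 0 in CKO males, 2 in the average of the sexes, 0 in the difference of the sexes, 7 between control sexes and 7 between CKO sexes. In females it was 1 with only the groups compared (Meioc, adjusted p = 0.0303 in edgeR) and 1 in limma (Meioc, adjusted p = 0.0367), and 0 to 1 when 1 library was left out. In males it was 1 with library size only and 1 in DESeq2, in both cases Stra8, and 0 to 1 when 1 library was left out, with Stra8 called without female CKO 1, male Ctrl 4 or male CKO 1. The average fell to 0 with no filter on low counts and ran from 0 to 3 when 1 library was left out. M1ap, at 0.0809 in the average, passed with library size only (0.046), in limma (0.041) and in DESeq2 (0.0386), and without female CKO 2 or male Ctrl 2. Between the CKO sexes it ran from 5 to 7 when 1 library was left out. The cause of these changes was not tested.

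Signs turned only in values that were not called, in log2. Sohlh2 in females was 0.01 with RLE factors, 0.10 with library size only, 0.00 with no filter, 0.05 with the 5 CPM filter, 0.01 with only the groups compared and 0.01 in DESeq2. In males Ythdc2 was 0.01 with library size only and 0.00 with no filter, and Sohlh2 was -0.01 in limma. In the average Sohlh2 was -0.02 in limma, and in the difference of the sexes Meioc was 0.02 and Sohlh2 0.01 with library size only. When 1 library was left out, the female values ran from -0.16 to 0.14 in Sohlh2, -0.42 to 0.00 in Zglp1, -0.09 to 1.35 in Gm4969 and -0.05 to 0.76 in M1ap. The male values ran from -0.01 to 0.13 in Sohlh2, -0.06 to 0.02 in Ythdc2 and -0.50 to 0.01 in Gm4969. The averages ran from -0.16 to 0.05 in Zglp1, -0.17 to 0.55 in Gm4969 and -0.05 to 0.10 in Sohlh2, and the differences of the sexes from -0.52 to 0.29 in Meioc, -0.32 to 0.01 in Ezh2, -0.22 to 0.08 in Sohlh2 and -0.64 to 0.18 in M1ap.

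Correlations of the deviations of same-numbered embryos ran from -0.02 to 0.11 within 1 sex and from -0.10 to 0.15 between the sexes. The numbers are the replicate numbers of the labels. In females they do not all match the numbers in the column names. The groups are small, and the deviations of the 2 female CKO embryos mirror each other. These values therefore cannot show whether embryos were paired, and shared litters or batches were not tested. With the replicate block the counts of regulators called were 0, 0, 2, 0, 7 and 7 in the order above. The count over all genes in CKO females was 1198, against 2035 in limma, 1966 in DESeq2 and 317 to 1730 when 1 library was left out. In CKO males it was 284, against 63 with only the groups compared, 105 with the replicate block, 1098 in limma, 967 in DESeq2 and 36 to 502 when 1 library was left out. The average was 2460 and fell as low as 1363 without female CKO 2, and the count between the CKO sexes was 6411 and fell to 4063 without female CKO 1. Library size only moved the median of all genes in females by 0.11 and the split of higher and lower calls from 503 and 695 to 652 and 357, and in the average from 1145 and 1315 to 1505 and 782.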

Other observations

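The 2 partner pairs among the regulators were set against each other in each embryo, a description chosen after the values were seen and given without a test. The ratios are of CPM without regard to length, so only their change between groups can be read. The ratio of Meioc to Ythdc2 was 3.06, 3.19 and 2.48 in female Ctrl and 7.79 and 5.93 in female CKO. In males it was 0.364, 0.155, 0.326 and 0.412 in Ctrl and 0.375, 0.733 and 0.821 in CKO. The log2 ratio was higher in CKO by 1.23 in females and 1.04 in males.

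The ratio of Stra8 to Meiosin was 12.6, 8.55 and 12.6 in female Ctrl and 9.46 and 13.3 in female CKO. In males it was 0.39, 0.274, 0.62 and 0.862 in Ctrl and 2.16, 2.7 and 1.11 in CKO. The log2 ratio differed by 0.02 in females and 1.93 in males. Whether the change in this ratio differed between the sexes was not tested.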
